A study of Mus musculus with 12 samples.

Results

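The 45 genes described here encode the proteasome: its core particle, its regulatory cap, the proteins that activate or inhibit it, and the chaperones that help to assemble it. They were chosen by symbol, as every gene named Psma, Psmb, Psmc, Psmd, Psme, Psmf or Psmg followed by a number, leaving out the 3 immune-type beta subunits Psmb8, Psmb9 and Psmb10. All 45 are listed in both tables, among 43309 features at day 5 and 42802 at day 9. The libraries came from mouse neural progenitor cells of strain C57BL/6 grown with EGF and FGF-2. Control cells (WT) carried LaminB1+/+ and knockout cells (cKO) LaminB1fl/fl, the floxed gene of lamin B1, a structural protein of the inner nuclear membrane. Both genotypes also carried Ai3, a reporter that makes EYFP once Cre has acted, and both received the same lentivirus, in which the Sox2 promoter (pSox2) drives Cre, for 5 or 9 days. EYFP+ cells were sorted by flow cytometry before polyA RNA was extracted, so infected cells that had switched on the reporter were measured in both genotypes. Each of the 4 groups (WT and cKO at day 5 and at day 9) had 3 libraries. The labels do not say whether these came from separate animals or cultures, so p-values measure the spread between libraries, which may be technical.

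The proteasome degrades proteins that carry ubiquitin. Its core particle is a barrel of alpha and beta rings with the catalytic sites on the inner face of the beta rings. The cap sits on the end of the barrel, recognises ubiquitin, and unfolds the substrate with a ring of ATPases. Most subunits are present in fixed proportion in the finished complex, and many of their genes share the transcription factor NFE2L1, which raises their transcription when proteasome activity falls short. Neural stem and progenitor cells use the proteasome, as other dividing cells do, to remove cyclins and short-lived regulators.

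Lmnb1, the gene targeted by Cre, was at 247 to 288 normalised CPM (read counts scaled to the TMM-adjusted library size) in WT and 37.8 to 45.0 in cKO at day 5, and at 156 to 210 in WT and 32.8 to 39.4 in cKO at day 9, so every library followed its label. Total counts ran from 26720476 to 32127629 at day 5 and from 13315273 to 24662809 at day 9. At day 9, structural RNA (ribosomal and similar transcripts that polyA selection should remove) took 69.7% and 68.3% of the counts in cKO replicates 1 and 3 but 0.349% in cKO replicate 2, against 15.7 to 34.6% in WT. The 43 proteasome genes tested had a median of 343 and 376 counts in cKO replicates 1 and 3, and 2125 to 2723 in the other day 9 libraries. At day 5 structural RNA took 14.1% of the counts in cKO replicate 2 and 0.0738 to 0.506% in the other libraries. WT replicate 1 and cKO replicate 2 of day 5 stood apart from the other libraries of their groups in the same direction, with r = 0.76 between their deviations across genes. All 6 progenitor markers (Nes, Sox2, Pax6, Vim, Fabp7, Hes5) were detected, at a summed 3684 to 5065 CPM at day 5, whereas microglial and endothelial markers summed to at most 2.31 CPM in any library.

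At day 5 the loss of lamin B1 was not accompanied by a detectable change in any proteasome gene. None of the 43 genes tested passed the threshold (edgeR's quasi-likelihood test with Benjamini-Hochberg adjusted p under 0.05), where 0% of the 14849 features tested were called higher and 0.00673%, Lmnb1 alone, lower. At an unadjusted p under 0.05 the count among the 43 was also 0, against 89 of all features. Fold changes were small, with a median of -0.06 (log2) and a range from -0.17 to 0.17, beside a median of 0.01 over all features. The WT and cKO values of all 43 genes overlapped, as they did for most features. Every cKO library lay below every WT library in 1.354% of all features and above in 1.495%. The remaining 2 of the 45 genes, Psma8 (a core subunit of the testis) and Psmb11 (the catalytic subunit of the thymus), had at most 11 counts in any library and were not tested.

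The 5 genes with the smallest unadjusted p at day 5 were Psmf1, Psme1, Psmd4, Psmb7 and Psma5. Psmf1, which encodes an inhibitor and regulator of the core particle, had 46.7, 60.0 and 60.5 CPM in the WT libraries against 59.0, 38.1 and 52.8 in the cKO libraries (log2 fold change -0.16 ± 0.25 SE, unadjusted p = 0.551, edgeR's quasi-likelihood test). Psmd4, a ubiquitin receptor of the cap, had 126, 181 and 179 CPM in the WT libraries against 185, 101 and 151 in the cKO libraries (-0.15 ± 0.29). Psma5, an alpha subunit, had 120, 148 and 175 CPM in the WT libraries against 152, 95.5 and 154 in the cKO libraries (-0.14 ± 0.27). In each of these genes the low value in WT was replicate 1 and the low value in cKO replicate 2, the pair of libraries that stood apart. Standard errors at day 5 ran from 0.18 (Psmd11) to 0.69 (Psme4) on the log2 scale, so a change of the size seen later would not have been detectable for many of the genes.

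At day 9, 26 of the 43 genes were lower in cKO, 1 was higher and 16 were not called. The share of all 14617 features tested that was called lower was 22.6%, and 21% was called higher. The median log2 fold change of the 43 genes was -0.46, beside 0.01 over all features, and 38 of the 43 were below 0. All 3 cKO libraries lay below all 3 WT libraries for 29 of the 43 genes, an arrangement found in 30.2% of all features. All 3 lay above the WT libraries for Psme4 alone, an arrangement found in 27.6% of all features. The changes were moderate, and none of the genes that fell did so by more than 1.76-fold. By comparison, 46 of 82 cytosolic ribosomal protein genes tested fell and 2 rose (median -0.51), and 1 of 8 genes of the CCT chaperonin fell (median -0.18). In bulk RNA of sorted cells, fewer cells of a type and less RNA per cell cannot be told apart.

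**Figure D1:**
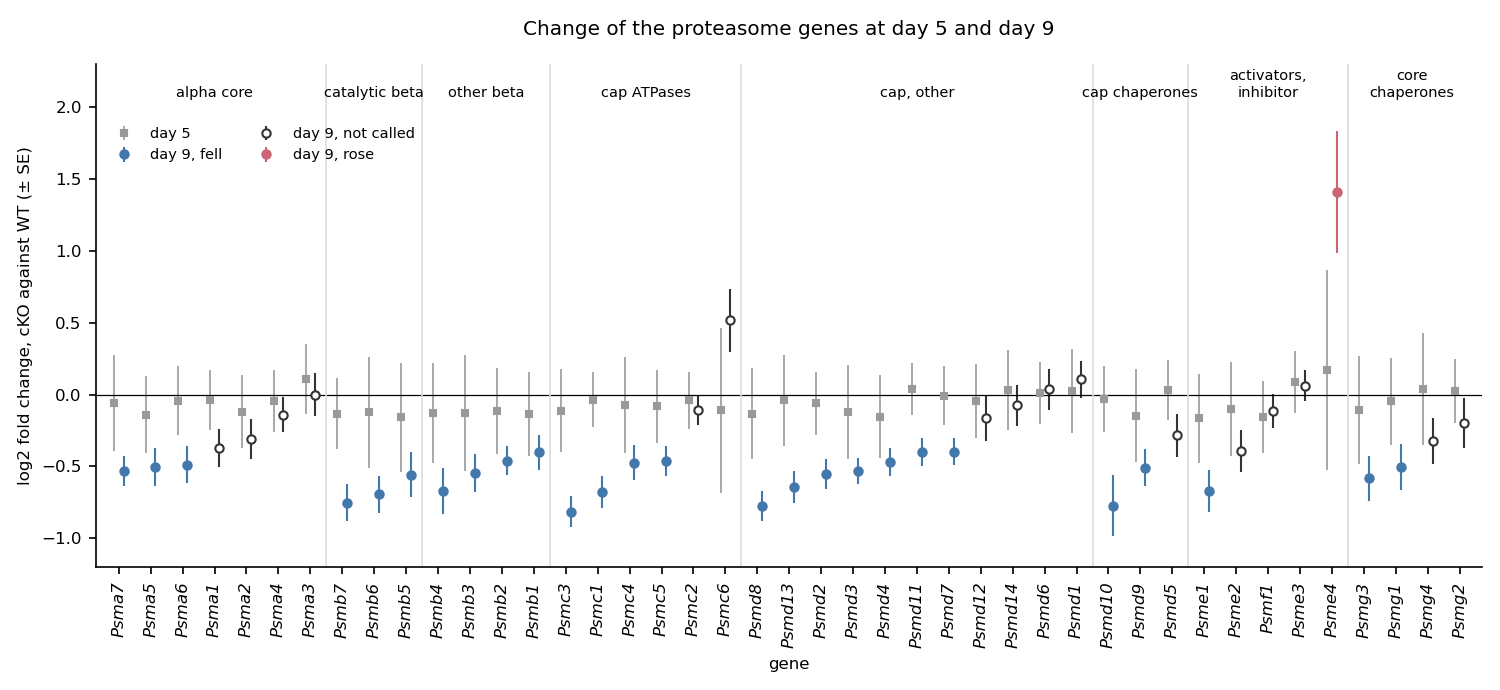
Log2 fold change of cKO against WT (vertical axis, ± SE) for the 43 proteasome genes tested, grouped by role. Grey squares are day 5, filled circles are day 9 changes that passed the adjusted p threshold (26 lower in blue, Psme4 higher in red) and open circles are day 9 changes that did not; day 5 values lie between -0.17 and 0.17.

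All 14 core particle genes had a negative log2 fold change at day 9 and 10 of them fell, with a median of -0.50. The 3 catalytic subunits all fell. Psmb5, the chymotrypsin-like subunit and the main target of clinical proteasome inhibitors, had 61.5, 51.7 and 60.2 CPM in the WT libraries against 37.1, 47.8 and 32.2 in the cKO libraries. Psmb6, the caspase-like subunit, had 137, 114 and 121 CPM in the WT libraries against 69.8, 88.2 and 71.5 in the cKO libraries. Psmb7, the trypsin-like subunit, had 123, 121 and 122 CPM in the WT libraries against 66.3, 86.4 and 64.3 in the cKO libraries. The groups did not overlap for any of the 3, and cKO replicate 2 was the cKO library nearest to WT each time. The fold changes were -0.56 ± 0.16 for Psmb5 (adjusted p = 0.0222), -0.69 ± 0.13 for Psmb6 (0.00387) and -0.75 ± 0.13 for Psmb7 (0.00282; log2 ± SE, edgeR's quasi-likelihood test, Benjamini-Hochberg over all features). The call for Psmb5 was lost when any of 4 libraries (WT replicate 1 or 3, cKO replicate 1 or 3) was left out, with adjusted p up to 0.0795.

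The 4 beta subunits without a catalytic site also fell, by between 0.40 and 0.67 on the log2 scale. Psmb4, the lowest of them, had 114, 93.7 and 109 CPM in the WT libraries against 59.7, 82.6 and 56.6 in the cKO libraries (1.59-fold lower, -0.67 ± 0.16 SE, adjusted p = 0.0120, edgeR with Benjamini-Hochberg). Without cKO replicate 1 the adjusted p of Psmb4 was 0.054. Psmb1, the least changed, had 136, 129 and 141 CPM in the WT libraries against 97.7, 118 and 90.8 in the cKO libraries (-0.40 ± 0.12, edgeR adjusted p = 0.0287), and kept its call in 1 of 6 fits that left out a library, the one without cKO replicate 2, with adjusted p up to 0.1004.

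In the alpha ring, Psma5, Psma6 and Psma7 fell, and Psma1, Psma2, Psma3 and Psma4 did not pass the threshold; differences between these genes were not tested. Psma7 had 101, 88.7 and 92.8 CPM in the WT libraries against 61.4, 72.2 and 61.5 in the cKO libraries, without overlap (-0.53 ± 0.11 SE, edgeR adjusted p = 0.00578). Psma3 had 43.5, 53.0 and 44.9 CPM in the WT libraries against 44.4, 56.4 and 40.0 in the cKO libraries, with the groups fully interleaved (47.1 ± 5.15 against 46.9 ± 8.51 CPM, mean ± SD, n = 3; edgeR adjusted p = 0.999). Psma1 and Psma2 lay between these, at -0.37 ± 0.13 and -0.31 ± 0.14, with no overlap between groups but adjusted p of 0.0536 and 0.0984 (edgeR), and were not called in 10 and 14 of 16 alternatives on counts. With a trend with GC content and length removed, Psma1, Psma2 and Psma3 were called lower and Psma5 and Psma7 were not. That setting used the longest protein-coding transcript of each gene, which need not be the one expressed.

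In the cap, 11 of 17 genes fell and none rose (median -0.46), counting 6 ATPases and 11 other subunits. Psmc3, the ATPase with the lowest fold change of all 43 genes, had 137, 129 and 134 CPM in the WT libraries against 73.3, 84.9 and 68.8 in the cKO libraries. It was 1.76-fold lower (-0.81 ± 0.11 SE, adjusted p = 0.000794, edgeR with Benjamini-Hochberg). Psmc1, an ATPase whose tail docks into the alpha ring, had 119, 136 and 138 CPM in the WT libraries against 81.7, 89.5 and 74.6 in the cKO libraries (-0.68 ± 0.11, edgeR adjusted p = 0.00233). Psmc4 and Psmc5 also fell and Psmc2 was not called. Psmc6 went the other way, with 29.8, 25.9 and 18.6 CPM in the WT libraries against 36.3, 42.5 and 27.2 in the cKO libraries, with overlap and without passing the threshold (0.52 ± 0.22, edgeR adjusted p = 0.0887); with the replicate number as a block the adjusted p was 0.0318.

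Among the other cap subunits, Psmd2, Psmd3, Psmd4, Psmd7, Psmd8, Psmd11 and Psmd13 fell, while Psmd1, Psmd6, Psmd12 and Psmd14 were not called. Psmd8, a subunit of the lid, had 144, 129 and 136 CPM in the WT libraries against 73.0, 87.1 and 79.1 in the cKO libraries (1.71-fold lower, -0.77 ± 0.10 SE, adjusted p = 0.000902, edgeR with Benjamini-Hochberg). Psmd4, the ubiquitin receptor described at day 5, had 94.4, 89.1 and 96.6 CPM in the WT libraries against 65.3, 73.5 and 63.6 in the cKO libraries (-0.47 ± 0.10, edgeR adjusted p = 0.00685). Psmd1, one of the large scaffold subunits of the base, had 91.2, 103 and 88.9 CPM in the WT libraries against 95.4, 119 and 89.1 in the cKO libraries (0.11 ± 0.13, edgeR adjusted p = 0.531). Psmd14, the deubiquitinase of the lid, had a log2 fold change of -0.08 ± 0.14. Psmd2, the other large scaffold, fell (-0.55 ± 0.11, edgeR adjusted p = 0.00479), and the difference between these scaffold genes was not tested.

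The chaperones that assemble the complex were lower or not called. For the cap, Psmd10 and Psmd9 fell (-0.77 ± 0.21 and -0.51 ± 0.13 SE) and Psmd5 did not pass (-0.28 ± 0.15). For the core, Psmg1 and Psmg3 fell and Psmg2 and Psmg4 did not pass. Psmg3 had 15.3, 13.1 and 13.3 CPM in the WT libraries against 8.26, 10.8 and 8.44 in the cKO libraries (-0.58 ± 0.16, edgeR adjusted p = 0.0194). Psmg2 had 13.6, 13.5 and 13.6 CPM in the WT libraries against 9.04, 14.3 and 11.7 in the cKO libraries (-0.20 ± 0.17, edgeR adjusted p = 0.375), with cKO replicate 2 above every WT library. The calls of Psmd10, Psmg1 and Psmg3 were each lost in at least 4 of the 6 fits that left out a library.

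The activators divided. Psme1, which with Psme2 forms the ring-shaped activator linked to antigen processing, had 35.2, 27.4 and 34.7 CPM in the WT libraries against 20.3, 22.4 and 18.3 in the cKO libraries (1.59-fold lower, -0.67 ± 0.15 SE, adjusted p = 0.00830, edgeR with Benjamini-Hochberg). Its partner Psme2 was at -0.39 ± 0.14 and did not pass (edgeR adjusted p = 0.0556). Psme3, the related nuclear activator, was at 0.06 ± 0.11 and the inhibitor Psmf1 at -0.12 ± 0.12, both with overlapping groups.

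Psme4, a nuclear activator that caps the core particle without ubiquitin recognition, was the gene that rose. It had 18.4, 10.8 and 5.82 CPM in the WT libraries against 36.5, 25.2 and 31.8 in the cKO libraries, 2.66-fold higher (1.41 ± 0.42 SE, adjusted p = 0.0400, edgeR with Benjamini-Hochberg). The groups did not overlap, but among the 43 genes this was the one whose day 9 WT values were farthest apart in proportion to each other. The call was lost when WT replicate 2 or any cKO library was left out, with adjusted p of 0.0770 to 0.117, and without a low-count filter (0.098). At day 5 the same gene had 78.9, 30.1 and 29.9 CPM in the WT libraries against 22.2, 106 and 27.8 in the cKO libraries, where the high values were the 2 libraries that stood apart.

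**Figure D2:**
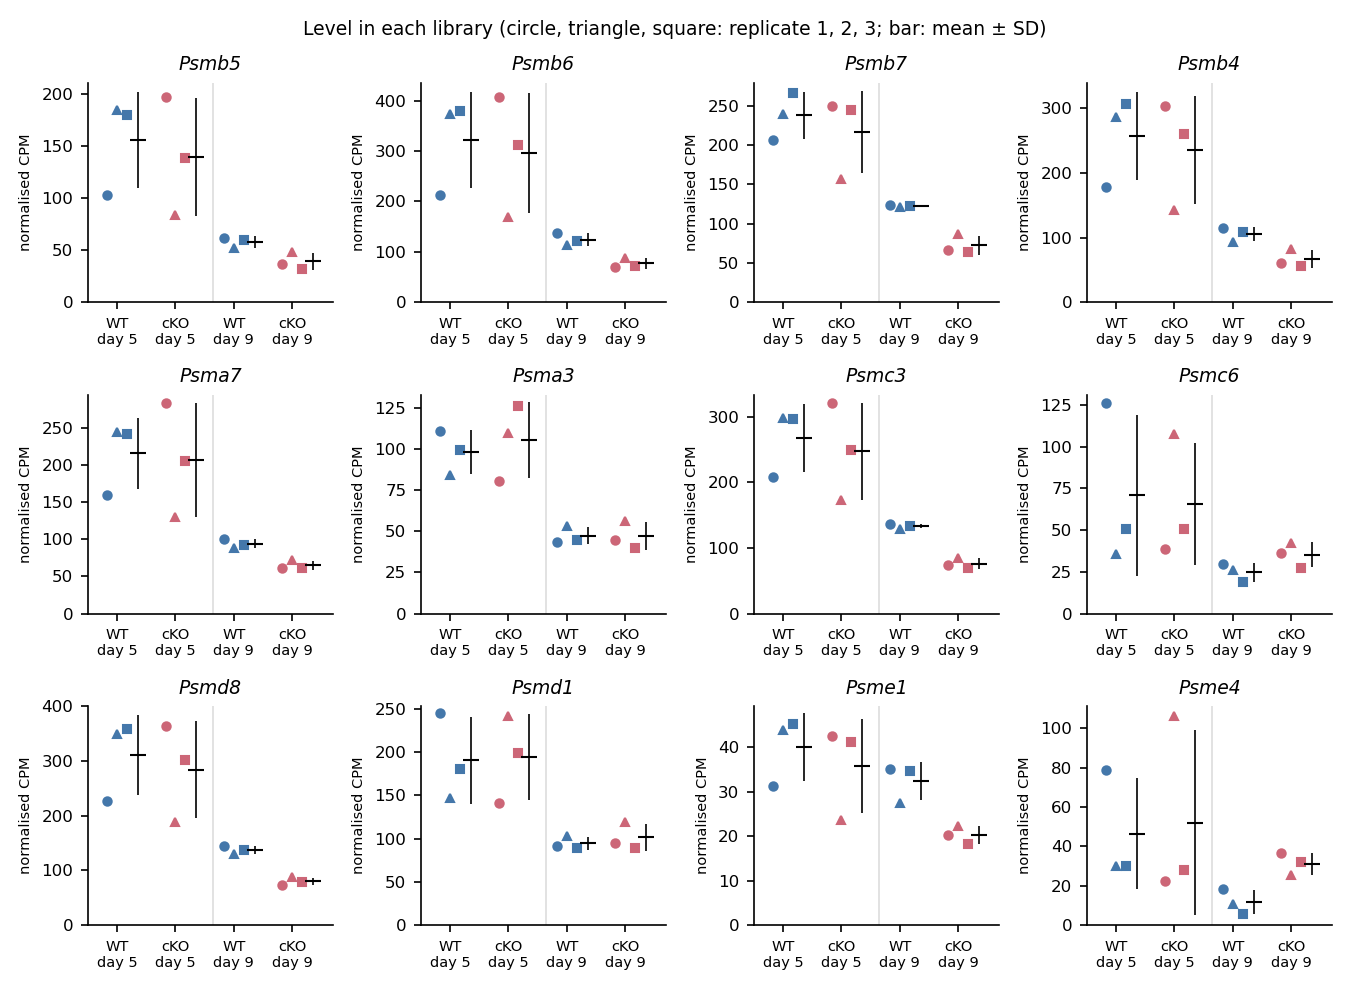
Normalised CPM of 12 proteasome genes (vertical axis, from 0) in each library of the 4 groups, with the mean ± SD beside each group; circles, triangles and squares are replicates 1, 2 and 3. At day 9 the cKO points of the catalytic subunits Psmb5, Psmb6 and Psmb7 lie below all WT points, Psma3 and Psmd1 overlap, and Psme4 lies above; at day 5 all 12 genes overlap.

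The size of the day 9 decrease differed between cKO libraries. The median of the 43 genes against the WT mean was -0.55 (log2) in cKO replicates 1 and 3, the libraries rich in structural RNA, and -0.27 in cKO replicate 2, where 33 of 43 genes were below the WT mean. With structural RNA set aside, proteasome genes accounted for 0.569%, 0.561% and 0.569% of the remaining counts in the WT libraries against 0.374%, 0.483% and 0.371% in the cKO libraries. Leaving out cKO replicate 1 reduced the number of genes called lower from 26 to 14, leaving out cKO replicate 3 reduced it to 17, and leaving out cKO replicate 2 raised it to 30. Of the 26, 14 were called in every fit that left out a single library. With cKO replicates 1 and 3 both left out, the median was -0.31. That fit has 1 cKO library, assumed to vary like the WT libraries, which alone give the spread; it called 4 genes lower, Psmb7, Psmc1, Psmc3 and Psmd8. The deposited TPM values, which are not rescaled for the structural RNA, gave no calls with limma on log2(TPM + 1), with a median of -1.51 for the 43 genes and -0.91 for all features. For none of these alternative fits is the share of all features called given here, so the counts of genes have no like background.

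**Figure D3:**
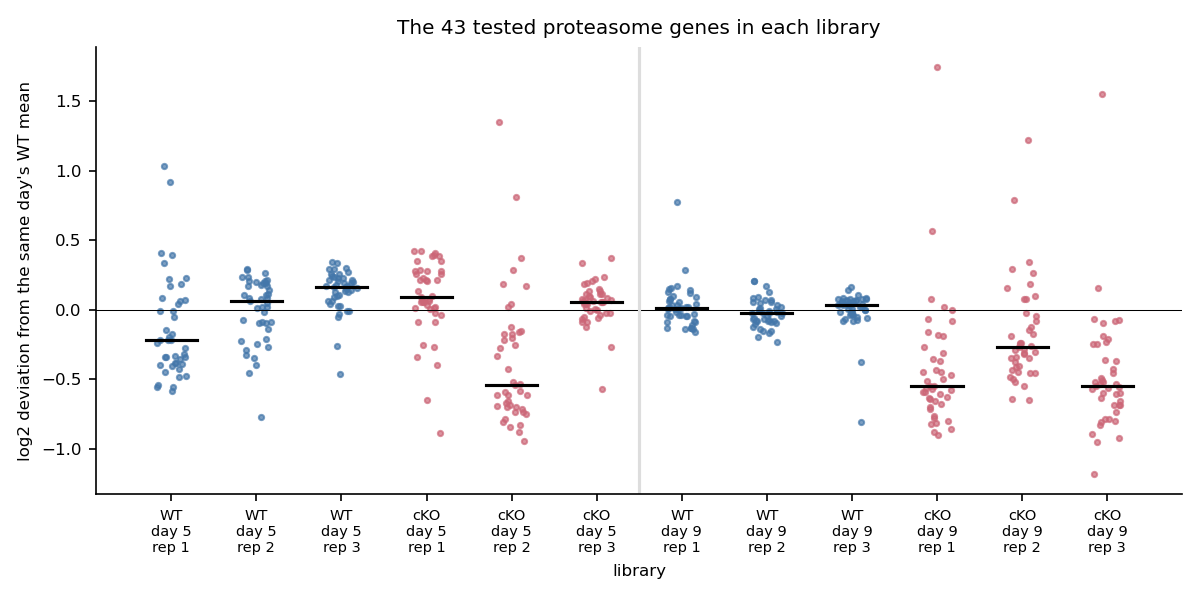
Log2 deviation of each of the 43 tested proteasome genes from the WT mean of the same day (vertical axis) in the 12 libraries, with the median as a black bar. Medians at day 9 are -0.55, -0.27 and -0.55 in the 3 cKO libraries; at day 5 cKO replicate 2 has the lowest median, -0.54, and WT replicate 1 is at -0.22.

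Base composition and transcript length moved with the result. Both were taken from the longest protein-coding transcript of each gene, which need not be the one expressed. The 26 genes that fell had a median GC content of 51.9% and a median transcript length of 1373 bases, against 47.0% and 1870 bases for the 16 genes that were not called. Across the 43 genes the day 9 log2 fold change went with GC content at r = -0.55 and with length at r = 0.66 (Pearson). The same values over 12198 other coding genes were -0.34 and 0.27. By rank (Spearman) the values for length were close, 0.39 over the 43 genes and 0.37 over the others. Those for GC content were -0.61 and -0.38. The genes share libraries, so these correlations are descriptions. A similar order was visible between day 5 libraries of 1 genotype: the deviation of WT replicate 1 from WT replicates 2 and 3 went with the day 9 fold change at r = 0.79 over the 43 genes and 0.51 over the other coding genes. By rank these 2 values were 0.69 and 0.56. When a trend with GC content and length was removed in each library, an alternative chosen after the data were seen, 14 genes were called lower and Psme4 higher (0.71 ± 0.25 SE, edgeR adjusted p = 0.0487). The median of the 43 genes was then -0.14, beside -0.06 over all coding genes tested. The share of all coding genes called under this setting is not given here, so the count of 14 has no like background. Of those 14 genes, 10 were among the 26: Psma6, Psmb7, Psmc1, Psmc3, Psmd2, Psmd3, Psmd8, Psmd10, Psmd11 and Psmd13. Psma1, Psma2, Psma3 and Psmd5 were called lower under this setting and not in the main test, and Psmb5 and Psmb6 were not called (-0.06 and -0.18). The transcript lengths used were 2911 bases for Psma2 and 2846 for Psma3, and whether those transcripts were the ones expressed was not tested. Psmd2, Psmd3, Psmd11 and Psmd13 were called lower under 15 of the 16 alternatives run on counts, all but the fit with 1 cKO library, and Psmb7, Psmc1, Psmc3 and Psmd8 under that fit too. These genes were singled out after their values were seen. The part of GC content, length and structural RNA in the day 9 values was not tested beyond these alternatives.

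**Figure D4:**
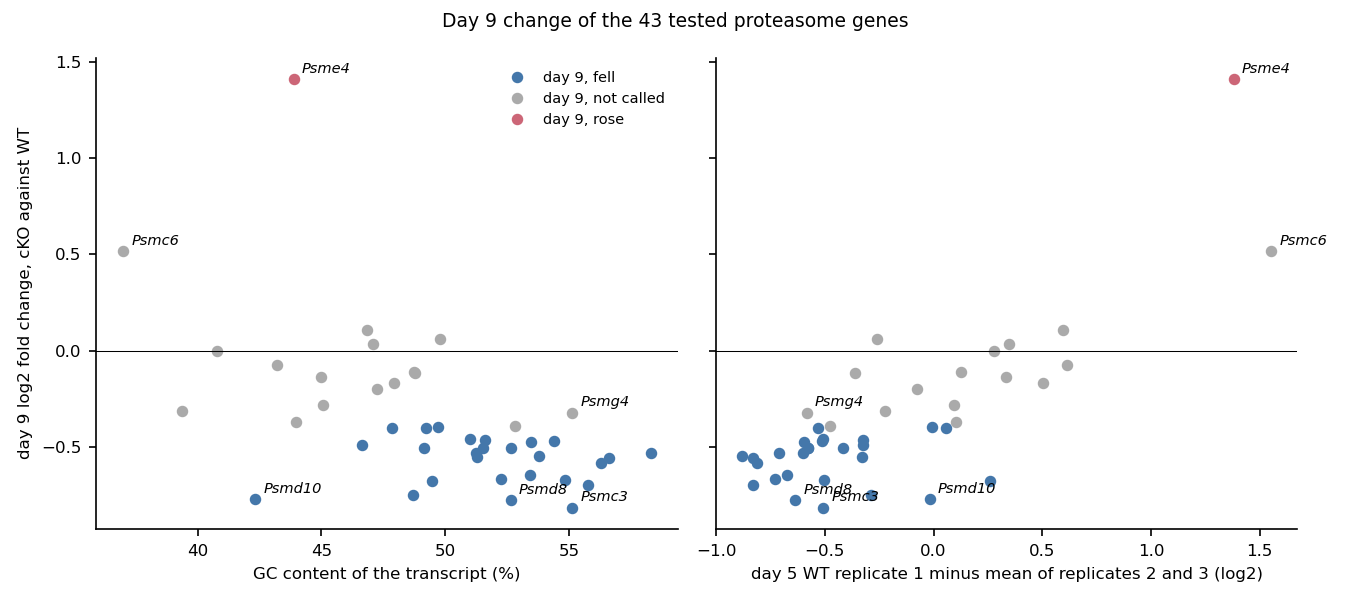
Day 9 log2 fold change of the 43 tested genes (vertical axis) against transcript GC content (left, percent) and against the log2 deviation of day 5 WT replicate 1 from the other WT replicates (right). Blue genes fell, grey genes were not called and Psme4, in red, rose; the correlations are -0.55 and 0.79.

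Markers of cell state also differed between the day 9 groups. Summed markers of cycling cells were at 411 to 549 CPM in WT and 90.9 to 104 in cKO, and 6 of the 7 fell. The 6 progenitor markers summed to 2511 to 2882 CPM in WT and 1174 to 1390 in cKO, with 4 lower and 1 higher. Of 11 markers tested for the oligodendrocyte lineage, 9 rose and 2 fell, Olig1 (-1.29 ± 0.12) and Olig2 (-0.55 ± 0.11, log2 ± SE), and the list summed to 2407 to 2832 CPM in WT and 3821 to 4722 in cKO. Of 8 astrocyte markers 6 rose and none fell (1918 to 2246 against 3087 to 3762 CPM), and of 7 neuronal markers 5 rose and none fell (127 to 289 against 514 to 579 CPM). Of 4 mural and fibroblast markers 1 was tested, Pdgfrb. It rose from 0.565, 0.394 and 0.465 CPM in WT to 1.09, 1.94 and 2.53 in cKO (1.96 ± 0.40, log2 ± SE). None of the 5 microglial and 4 endothelial markers passed the low-count filter at day 9. The part of this change in cell state in the proteasome result was not tested.

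Whether the change differed between days was tested in all 12 libraries together. None of the 43 genes passed the threshold for the day 9 change minus the day 5 change (edgeR's quasi-likelihood test, Benjamini-Hochberg), where 7.71% of the 15323 genes tested in both tables did. The estimates were mostly negative, with 38 of 43 below 0 and a median of -0.36. The lowest adjusted p belonged to Psmc1, at 0.0815 (-0.64 ± 0.20 SE, edgeR). Without cKO replicate 2 of day 5, 5 genes passed: Psmb7, Psmc1, Psmc3 and Psmd8 were more negative at day 9 (-0.70 to -0.91) and Psme4 more positive (2.31 ± 0.69), with edgeR adjusted p of 0.0374 to 0.0492. Without WT replicate 1 of day 5, Psmc1 alone passed (edgeR adjusted p = 0.0436). Levels were not compared between days, since each day has its own table.

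Per transcript length, the subunit genes were not equally expressed. In TPM the most abundant core gene was Psmb4 in 11 of the 12 libraries and Psmb6 in day 5 cKO replicate 1, and the ratio of the highest to the lowest of the 14 core genes ran from 2.82 to 5.54. Psmd10 was the lowest of the 20 cap and cap chaperone genes in every library. At day 9 the core genes summed to 3260, 2403 and 3181 TPM in the WT libraries against 484, 3678 and 515 TPM in the cKO libraries, following the structural RNA of those libraries, so each gene was expressed as a share of its own part of the complex. Psmb4 made up 13.999%, 12.6% and 13.5% of the core TPM in WT and 11.8%, 12.4% and 11.6% in cKO. Psma4 made up 4.55%, 5.12% and 4.84% in WT and 5.80%, 6.16% and 6.66% in cKO. The shares of Psmb4, Psmb6 and Psmb7 were lower in all cKO than in all WT libraries, those of Psma2, Psma3, Psma4 and Psmb1 were higher, and 7 of 14 overlapped. In the same order, the GC content was 52.2%, 55.8% and 48.7% for the lower genes and 39.4%, 40.8%, 45.0% and 49.2% for the higher ones. The part of GC content in the shares was not tested.

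Within the cap, Psmc3 made up 10.1%, 9.42% and 9.60% of the summed TPM in WT and 7.55%, 7.89% and 7.39% in cKO. Psmd6, a lid subunit, made up 3.88%, 4.11% and 4.25% in WT and 5.68%, 6.24% and 5.05% in cKO. In all, 6 of 20 cap and cap chaperone genes had lower shares in every cKO library (Psmc1, Psmc3, Psmd3, Psmd8, Psmd10 and Psmd13), 5 higher (Psmc2, Psmc6, Psmd1, Psmd6 and Psmd14) and 9 overlapped. By level, 30.2% of all features had every cKO library below every WT library at day 9 and 27.6% above. No shares were computed for other groups of genes, so the counts for core and cap have no like background. All 34 shares overlapped at day 5. The smallest two-sided p that an exact permutation test can give with 3 against 3 libraries is 0.1, so no test of single shares was made.

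**Figure D5:**
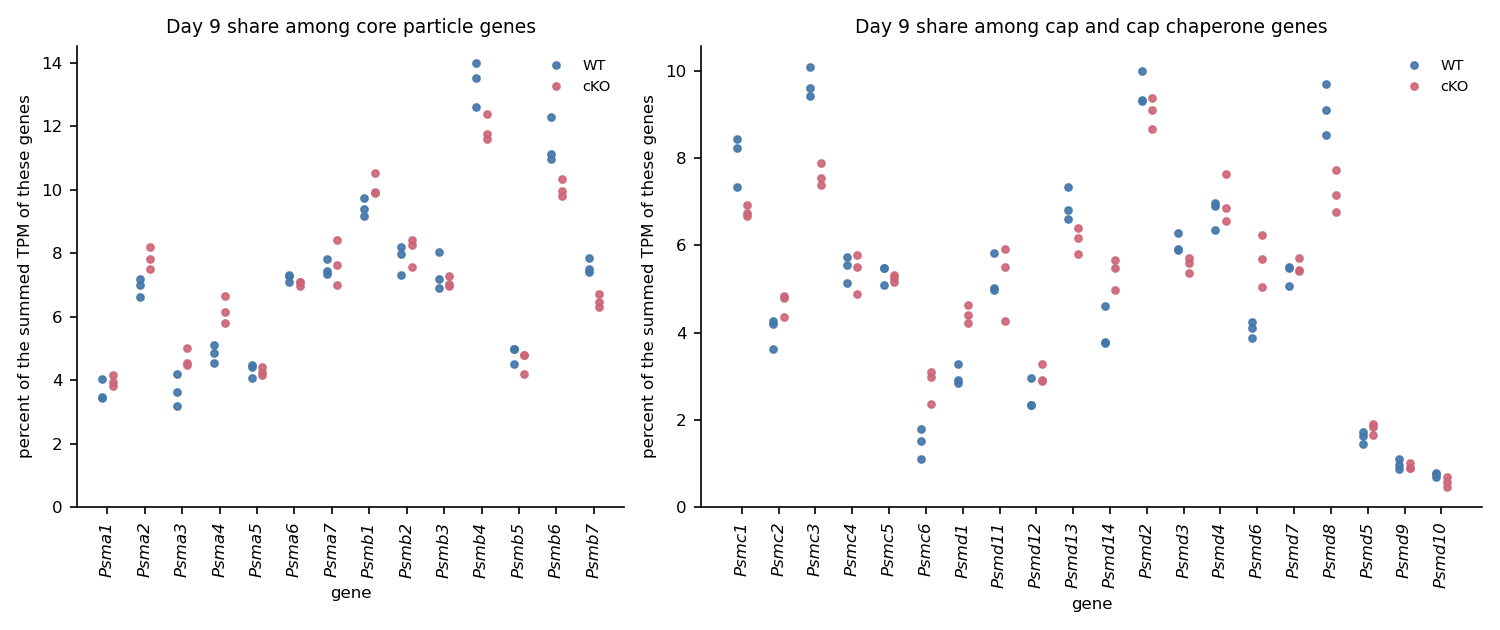
Share of the summed TPM (vertical axis, percent) that each of 14 core genes (left) and 20 cap and cap chaperone genes (right) took in the 3 WT (blue) and 3 cKO (red) libraries of day 9. The cKO points are below all WT points for 3 core and 6 cap genes, above for 4 and 5, and overlap for the rest.

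Promoters were examined because many of these genes moved together and share a known regulator. RefSeq promoters (250 bases before to 50 after the start, GRCm38.p6) were matched by symbol for 37 of the 45 genes; Psma8, Psmb1, Psmb2, Psmb7, Psmc3, Psmd3, Psmd7 and Psmg2 had no entry. The letters TGACNNNGC, the core of the antioxidant response element that NFE2L1 and related factors bind, were found on either strand in the promoters of 6 of 37 genes (16.2%), against 12.4% of 32851 promoters. Of these 6 genes, Psmb5, Psmb6 and Psmd9 fell at day 9, Psme4 rose, and Psmc6 and Psmd12 were not called; of the 31 without a match 17 fell. Other letters searched on both strands were CCGGAAG (an ETS-type match, 37.8% of the 37 genes against 8.86% of all promoters), GGGCGG (an SP1-type match, 59.5% against 35.7%) and CCAAT (35.1% against 37.4%). The 37 genes had 40 promoters. For all letters searched, a gene counted once with a match in any of its promoters, whereas the background counted single promoters. In Psmd9 the GGGCGG match shares letters with the TGACNNNGC match. The promoters of 2 catalytic subunits that fell, of the activator that rose and of the ATPase with the highest fold change of its class are shown 5′ to 3′ on the gene's strand, with the TGACNNNGC match or its reverse complement in capitals. They lie at chr14:54617946-54618245 (Psmb5, minus strand), chr11:70525107-70525406 (Psmb6, plus strand), chr11:30771525-30771824 (Psme4, plus strand) and chr14:45329574-45329873 (Psmc6, plus strand).
Psmb5: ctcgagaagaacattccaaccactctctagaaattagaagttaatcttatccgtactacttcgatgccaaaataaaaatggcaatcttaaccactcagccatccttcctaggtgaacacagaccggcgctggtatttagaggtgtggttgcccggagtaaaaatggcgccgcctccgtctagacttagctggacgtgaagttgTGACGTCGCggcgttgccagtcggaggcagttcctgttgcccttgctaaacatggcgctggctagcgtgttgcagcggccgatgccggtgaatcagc
Psmb6: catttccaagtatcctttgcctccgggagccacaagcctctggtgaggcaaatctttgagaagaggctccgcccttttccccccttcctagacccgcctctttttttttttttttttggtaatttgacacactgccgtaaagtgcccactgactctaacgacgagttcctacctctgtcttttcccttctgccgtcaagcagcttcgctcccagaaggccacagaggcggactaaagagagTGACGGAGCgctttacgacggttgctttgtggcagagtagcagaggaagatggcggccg
Psme4: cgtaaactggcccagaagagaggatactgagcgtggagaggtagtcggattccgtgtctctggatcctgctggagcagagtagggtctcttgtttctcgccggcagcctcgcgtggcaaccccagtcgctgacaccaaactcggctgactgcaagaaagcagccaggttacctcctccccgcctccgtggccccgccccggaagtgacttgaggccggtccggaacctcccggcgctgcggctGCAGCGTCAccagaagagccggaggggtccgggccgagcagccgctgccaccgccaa
Psmc6: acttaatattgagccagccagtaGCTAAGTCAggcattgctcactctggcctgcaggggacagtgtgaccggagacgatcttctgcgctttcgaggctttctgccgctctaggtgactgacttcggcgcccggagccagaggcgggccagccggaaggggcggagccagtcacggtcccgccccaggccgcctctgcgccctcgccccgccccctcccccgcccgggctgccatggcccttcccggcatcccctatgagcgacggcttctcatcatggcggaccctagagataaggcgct
The match starts 47 bases before the start site in Psmb5, 9 before it in Psmb6, 7 before it in Psme4 and 227 before it in Psmc6, on the gene's strand in the first 2 and on the other strand in the last 2. A match of letters is a description and not a measured binding site.

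Genes that work with the proteasome were read from lists of related genes. The 3 immune-type beta subunits, which replace the catalytic subunits after interferon, all fell at day 9 from low levels, by 0.94 to 1.82 on the log2 scale. Psmb8 had 3.28, 2.62 and 3.199 CPM in the WT libraries against 1.40, 0.729 and 0.563 in the cKO libraries (-1.82 ± 0.36 SE, edgeR adjusted p = 0.00549). Psmb9 (-1.64 ± 0.30) and Psmb10 (-0.94 ± 0.16) also had no overlap between groups. All 3 were called lower under the 16 alternatives run on counts. Psmb9 was at 0.624, 0.930 and 0.704 CPM in the cKO libraries. The cKO values of Psmb8 and Psmb9 rest on few counts in cKO replicates 1 and 3, the day 9 libraries with the fewest counts.

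Among 11 tested partners of the complex, 3 fell and 3 rose, shares near the 22.6% and 21% of all features. The cap subunit Shfm1 (also named Sem1), the ubiquitin receptor Adrm1 and the core assembly factor Pomp fell, by 0.70 ± 0.11, 0.43 ± 0.11 and 0.46 ± 0.13 (log2 ± SE). Shfm1 was called under all 15 alternatives on counts that tested it. Adrm1 and Pomp were each called under 10 of 16; both lost the call without WT replicate 1 or 2 or cKO replicate 1 or 3, and Pomp also without WT replicate 3 (edgeR adjusted p of 0.0510 to 0.0811 in these fits). Fbxo7, an F-box protein that binds the inhibitor encoded by Psmf1, rose from 27.7, 22.6 and 29.2 CPM in WT to 50.5, 62.0 and 54.3 in cKO (1.07 ± 0.14, adjusted p = 0.000679, edgeR with Benjamini-Hochberg). Zfand5, which stimulates proteasome activity, and AI314180 (Ecpas, an adaptor of the complex) rose by 0.73 ± 0.17 and 0.81 ± 0.23, but with the GC and length trend removed Zfand5 was at -0.60 (edgeR adjusted p = 0.132). AI314180 was called under 10 of 15 alternatives on counts and lost the call without WT replicate 2 or any cKO library (edgeR adjusted p of 0.0552 to 0.0919). With the trend removed Adrm1 was at -0.04 and not called.

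Of 9 genes tested around NFE2L1, 2 fell and none rose, a share lower that is near the 22.6% of all features. Nfe2l1 had 165, 192 and 190 CPM in the WT libraries against 117, 126 and 124 in the cKO libraries (-0.58 ± 0.10 SE, edgeR adjusted p = 0.00371), without overlap, and was called lower under all 16 alternatives run on counts. Maff, which encodes a small partner of such factors, fell from 2.06, 2.80 and 1.72 CPM to 1.09, 0.855 and 0.844, and lost its call without WT replicate 2 (edgeR adjusted p = 0.0779). Genes that process NFE2L1, Ddi2, Ngly1 and Syvn1, did not pass the threshold. Among 14 genes that supply ubiquitin or deliver substrates, 6 fell and 1 rose: the polyubiquitin gene Ubb fell by 0.55 ± 0.13 and the activating enzyme Uba1 by 0.43 ± 0.10, and Uba6, another activating enzyme, rose (1.84 ± 0.53, edgeR adjusted p = 0.0315) from 2.85, 1.97 and 0.727 CPM to 9.98, 4.68 and 5.63. Uba6 was called under 11 of 16 alternatives on counts: the call was lost without WT replicate 2 or cKO replicate 1 or 3 (edgeR adjusted p of 0.0687 to 0.0960), and with the GC and length trend removed (0.48, adjusted p = 0.168). Ubb was also not called with that trend removed (-0.18). None of the genes on these lists passed at day 5.

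The 45 genes are spread over 16 chromosomes, with 8 on chromosome 11 and 6 each on chromosomes 2 and 14. The closest pairs are on chromosome 14, where Psmb5 and Psmb11 lie 3410 bases apart and Psme1 and Psme2 5911 bases apart (GENCODE M21, GRCm38). Several genes overlap a protein-coding neighbour on the opposite strand, among them Psmc3 (Slc39a13), Psmb7 (Nek6), Psmd13 (Sirt3) and Psme1 (Emc9). Whether counting used the strand is not given in the sources used here, so reads from such neighbours cannot be told apart.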

How the data were processed

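RNA-seq of 12 libraries, 3 in each of 4 groups, was used. Per the submitters' processing notes the tools were RSEM and Bowtie2 (version given as 4.8.4) with build mm10; no source used here gives their roles, the strand setting or any trimming. The deposited tables hold RSEM expected counts and TPM per gene, 1 pair of tables per day. Expected counts made by the authors were rounded before testing; deposited TPM served for levels per length and as an alternative. Day 5 Ensembl IDs were mapped to symbols with the GENCODE M21 annotation; day 9 used symbols.

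Each day was fitted alone in edgeR 4.0.16 (R 4.3.3): filterByExpr, TMM, robust quasi-likelihood fit and test, Benjamini-Hochberg over all features, threshold 0.05. The difference between days used all 12 libraries and the 41592 symbols found once in both tables. CPM are counts scaled to the TMM-adjusted library size, and deviations used log2(CPM + 0.5). Scripts were tested on simulated data. GC content and length were those of each gene's longest protein-coding GENCODE transcript. Replicate pairs differed by more than counting noise, so no library was counted as a duplicate. The closest pair was cKO replicates 1 and 3 of day 9, with a chi-square per degree of freedom of 4.73, against 29.0 to 1576 in the other day 9 pairs. Alternatives were other scalings, DESeq2 1.42.0, limma 3.58.1, filters, leaving out structural RNA or libraries, a replicate block, and, chosen after the data were seen, removal of a GC and length trend. Counting limits the precision most in day 9 cKO replicates 1 and 3.

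The genes and lists were chosen with earlier results of these data known. Values were printed for the catalytic subunits, for the lowest and highest day 9 fold change in each class, for genes moving against their class, for the 5 smallest p at day 5, and from each related list for up to 4 called genes per direction at day 9, always with Nfe2l1, Pomp, Adrm1, Psmb8, Psmb9 and Psmb10; Psmc1, Psmd10 and others outside this rule were added after their values were seen. Some genes that this rule names are not reported here.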

Additional observations from a re-analysis of the deposited data

Results flagged for a closer look

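No proteasome gene of the 45 was flagged. Among the related genes named, 3 changed differently at day 9 and day 5 by the test of the difference itself (edgeR's quasi-likelihood test over all 12 libraries, Benjamini-Hochberg). Fbxo7 had a day 9 change minus day 5 change of 1.44 ± 0.26 (log2 ± SE, adjusted p = 0.00594, edgeR), which passed in 16 of 17 alternatives and not with the replicate block (0.114). Nfe2l1 had a difference of -0.64 ± 0.16 (adjusted p = 0.0387, edgeR), which passed in 2 of 17. Psmb8 had a difference of -1.89 ± 0.52 (adjusted p = 0.0499, edgeR), which passed in 3 of 17. The sign was the same in all of these alternatives for all 3 genes.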

How the results depend on the processing

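At day 5, none of the 18 alternatives called a proteasome gene, and the median of the 43 genes ran from -0.21 to 0.08 when single libraries were left out. At day 9, the number lower was 26 with RLE size factors, 28 with upper-quartile scaling, 27 with DESeq2, 25 with limma-voom and 25 with the replicate block, and 14 to 30 when single libraries were left out; the number higher was then 0 to 1, 2 with the replicate block and 0 without a low-count filter. On deposited TPM, limma called 0 lower and 0 higher with a pseudocount of 1 or 0.1 (medians -1.51 and -1.54, all features -0.91 and -1.10). With the GC and length trend removed, 14 were lower and the median was -0.14. Without cKO replicates 1 and 3 of day 9 together, which leaves 1 cKO library assumed to vary like WT, 4 were lower, 0 higher, and the median was -0.31. The day difference was called for 0 to 5 genes when single libraries were left out (5 without cKO replicate 2 and 1 without WT replicate 1 of day 5) and for 0 otherwise, the replicate block included; the GC and length setting was not run for it. The cause of these shifts was not tested. The shares of all features called in these alternatives are not given here, so the counts have no like background.

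Of the day 9 values for the 18 proteasome genes named by the rule (18 alternatives each), 254 stayed on the same side of the threshold, 68 lost their call and 2 gained one. On TPM, where all features shift down as above, the signs of 3 related genes reversed: AI314180 to -0.025 and -0.042, Fbxo7 to -0.27 and -0.29, and Zfand5 to -0.34 and -0.38 with pseudocounts of 1 and 0.1. Zfand5 was at -0.60 with the GC and length trend removed. The deviations of same-numbered libraries had r of -0.72, -0.50 and 0.53 at day 5 and -0.001, -0.20 and -0.06 at day 9, with 1 of 6 pairs (number 3 at day 5) over 0.1, so the replicate block pairs libraries by number only. Shares of expected counts gave 2 lower and 4 higher core genes and 6 and 5 cap genes at day 9. By counts the shares of Psmb4 and Psmd3, lower by TPM, overlapped between groups. Psmd2, which overlapped by TPM, had a lower share by counts in every cKO library.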
